A study of Mus musculus with 4 samples.

Results

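Serpins are proteins that trap or bind proteases, and 9 of their transcripts are described here in mouse knee cartilage: Serpina1a, Serpina1b, Serpina1c, Serpina1d, Serpina1e, Serpina3n, Serpina3g, Serpine2 and Serpinf1. The deposited count table lists 24421 genes, of which 63 have a symbol starting with Serpin, and these 9 are among them. They were chosen by gene family together with earlier values of these same libraries for the operated against the sham knee. Their differences between those knees are therefore given as a description, without p-values of their own. All 9 passed the filter on low counts that left 13103 genes for testing, so none was lost, although a gene high in only 1 kind of knee could pass that filter through those libraries alone. Serpina3g does not match the heading of a secreted serpin, since its product is known in the mouse as a protein of the cytosol and nucleus.

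The 4 libraries hold poly(A) RNA from the top layer of articular cartilage, the superficial zone, of the medial femoral condyle of C57BL/6J mice 8 weeks after surgery. Each of 2 mice, M04 and M05, gave 1 sham-operated knee and 1 knee in which the medial meniscus was destabilized (DMM), a model of osteoarthritis by joint instability. Sample labels record both animals as wild type, whereas the design text of the series marks the M05 samples KO and names no gene, so M05 against M04 is given as a difference between 2 animals, and whether their genotypes differ is not settled by these sources. In M05 against M04 each side is 1 animal with its 2 knees, so p-values there do not measure the spread between animals. Age, sex and any pooling of tissue were not given in the sources used here.

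Total counts ranged from 12712425 to 19336628 a library, with 15472 to 15910 genes above 0. Haemoglobin genes, the main transcripts of red blood cells, took 25.7% to 35.3% of the counts. All 21 chondrocyte markers were detected, but their summed level differed between libraries. Scaled to 1000000 counts in the library, it was 7264 and 9045 in the sham and DMM knee of M04, and 1871 and 5993 in the sham and DMM knee of M05. The sham library of M05 therefore stood apart, and values without it are given where they matter. In bulk tissue, fewer cells of a type and less RNA per cell cannot be told apart.

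A serpin exposes a flexible reactive centre loop as bait. When a target protease cuts this loop, the loop inserts into the body of the serpin and the protease stays covalently trapped. The residue just before the cut bond largely sets which protease is caught. Most circulating serpins come from the liver; in joints, serpins are of interest because proteases released by neutrophils, plasma and chondrocytes degrade matrix. SERPINA1, alpha-1-antitrypsin, is the main plasma inhibitor of neutrophil elastase, and the mouse carries it as several near-identical genes on chromosome 12.

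The loop is where the mouse copies differ most visibly, and it is shown because it tells apart genes that are otherwise hard to separate by reads. Each line gives 75 bases of the coding strand, 25 codons from the hinge of the loop onwards, all within the last exon. They were read from GENCODE transcripts on GRCm38, an older build than that of the counts, and all 5 genes lie on the minus strand. Capitals mark the 18 positions at which the copies are not all the same.
Serpina1a, chr12:103853756-103853830: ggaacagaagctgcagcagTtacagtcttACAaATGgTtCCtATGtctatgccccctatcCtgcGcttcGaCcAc
Serpina1b, chr12:103728323-103728397: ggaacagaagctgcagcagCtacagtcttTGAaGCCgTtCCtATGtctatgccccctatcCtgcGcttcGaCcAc
Serpina1c, chr12:103895093-103895167: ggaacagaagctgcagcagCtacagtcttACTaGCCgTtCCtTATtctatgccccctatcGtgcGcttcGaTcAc
Serpina1d, chr12:103763761-103763835: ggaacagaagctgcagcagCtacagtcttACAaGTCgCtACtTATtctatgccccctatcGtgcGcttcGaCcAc
Serpina1e, chr12:103947099-103947173: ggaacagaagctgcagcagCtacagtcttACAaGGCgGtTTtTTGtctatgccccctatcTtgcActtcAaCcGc

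Codon 15 of these lines, just before the bond that a protease cuts, is ATG in Serpina1a and Serpina1b, TAT in Serpina1c and Serpina1d, and TTG in Serpina1e. The copies differ by 5 to 12 bases of the 75 in pairs. Over the whole coding sequence they are alike at 96.3% to 98.5% of aligned bases. Reads of 100 bases can therefore fit more than 1 copy. Of all possible 100-base stretches of its transcripts, 85.6% were found in no other gene for Serpina1e, 85.2% for Serpina1b, 70.7% for Serpina1d and 57.2% for Serpina1a. For Serpina1c it was 30.7%, with 58.0% shared with Serpina1a, so values of single copies are uncertain and their sum is the firmer measure.

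Summed over the 5 Serpina1 rows, alpha-1-antitrypsin transcripts reached 812.99 (sham) and 1172 (DMM) estimated counts in M04, while M05 gave 555.99 (sham) and 1382 (DMM). As CPM, counts for each 1000000 in the library after TMM scaling for composition, these were 60.2 and 78.4 in M04, and 32.6 and 113 in M05. Both DMM libraries lay above both sham libraries, and the order ran from the sham knee of M05, through the sham and DMM knees of M04, to the DMM knee of M05. The log2 ratio of DMM to sham was 0.38 in M04 and 1.79 in M05. The fitted log2 fold change over both mice was 1.08 (n = 2 mice), with an SE of 0.20 from the fit. That SE, like the others below, rests mostly on the spread of other genes and does not measure the gap between the 2 mice. Leaving out the sham library of M05 reduced the fold change to 0.67, and leaving out the sham library of M04 raised it to 1.56. Fits with a library left out, here and below, had no mouse term, so their values mix surgery with mouse. Within M04 alone the log2 ratio was 0.38.

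**Figure D1:**
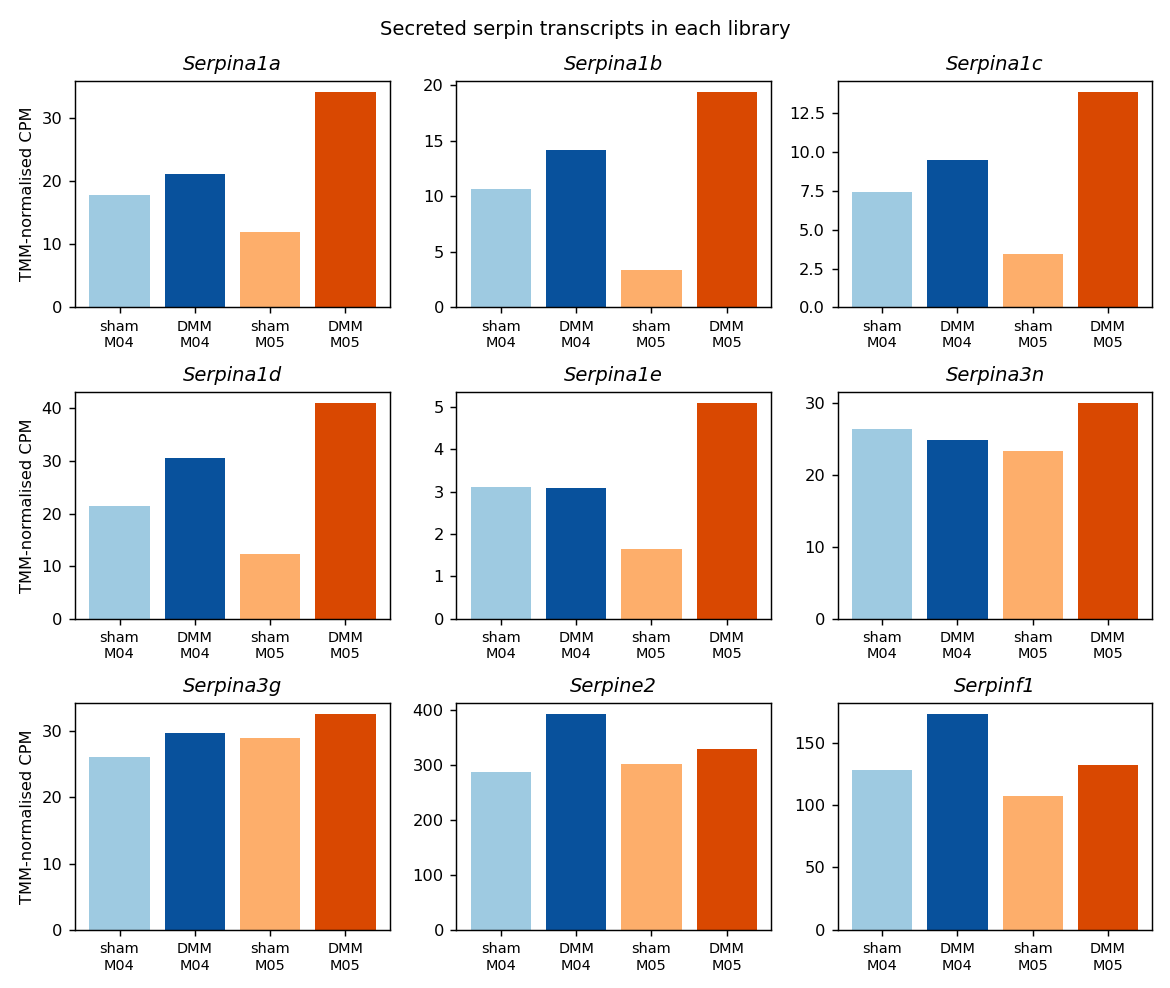
TMM-normalised CPM of the 9 serpins in each of the 4 libraries, 1 bar per library and 1 panel per gene, each with its own axis from 0. For the Serpina1 copies the sham knee of M05 is the lowest bar and its DMM knee the highest, whereas Serpina3g differs little between libraries and Serpine2 and Serpinf1 are highest in the DMM knee of M04.

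Serpina1d, the copy with most counts, was at 21.4 and 30.6 CPM in the sham and DMM knee of M04 and at 12.3 and 41.1 CPM in those of M05. Its groups did not overlap, and its fold change was 1.12 (log2, SE 0.19). Serpina1a followed with 17.7 and 21.1 CPM in M04 and 11.9 and 34.1 CPM in M05, a fold change of 0.89 (log2, SE 0.21). Serpina1b had the largest fitted difference of the 9 genes, 1.41 (log2, SE 0.28). It rested on 10.7 and 14.1 CPM in M04 against 3.34 and 19.4 CPM in M05, log2 ratios of 0.40 and 2.49. Without the sham library of M05 its value was 0.65, and without the sham library of M04 it was 2.32. Serpina1d came to 0.74 without the sham library of M05, and Serpina1a to 0.51 without the DMM library of M05.

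Serpina1c was at 7.41 and 9.50 CPM in M04 and at 3.46 and 13.9 CPM in M05, a fold change of 1.16 (log2, SE 0.31). Serpina1e, the rarest copy, was at 3.11 and 3.08 CPM in M04 and at 1.64 and 5.09 CPM in M05. Here the 2 kinds of knee overlapped, and the log2 ratio was -0.02 in M04 and 1.55 in M05. Its fold change of 0.80 had an SE of 0.49. Leaving out the sham library of M05 gave 0.65 for Serpina1c and 0.38 for Serpina1e, and leaving out the sham library of M04 gave 1.75 and 1.31. Without the DMM library of M05, Serpina1e was also at 0.38.

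In the fit across all genes with edgeR's quasi-likelihood test, 4 of the 9 serpins, Serpina1a to Serpina1d, passed an adjusted p of 0.05 in the higher direction. Among all genes tested 0.633% did so. Nothing is read from this count, because the same contrast was used to choose the genes. These 4 calls were lost without the mouse as a block, with DESeq2, with other scalings, in the FPKM table, and without the sham library of M05 or either DMM library. Both DMM libraries lay above both sham libraries for 7 of the 9 genes, against 13.2% of all genes. The log2 ratio was above 0 in both mice for 7 of the 9, against 23.2% of all genes. Nothing is read from these counts either, because of the same choice of genes and because the Serpina1 copies among them share reads.

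How the Serpina1 signal divided among its copies was steadier than its level. Serpina1d held 35.5% to 39.0% of the summed counts in the 4 libraries, Serpina1c 10.6% to 12.3%, and Serpina1e 3.92% to 5.16%. Serpina1a held 26.9% to 30.0% in 3 libraries and 36.5% in the sham knee of M05 (95% Wilson interval 32.6% to 40.6%). Serpina1b held 17.1% to 18.0% in those 3 libraries and 10.3% in the sham knee of M05 (95% Wilson interval 8.00% to 13.1%). The intervals cover counting error only, and the sharing of reads between copies bears on all of these shares.

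The deposited FPKM table, which scales by transcript length, gave the sum the same order, 28.2 and 40.0 FPKM in the sham and DMM knee of M04 and 16.7 and 55.3 FPKM in those of M05. It divided the signal differently. Serpina1d held 51.2% to 55.2% of the summed FPKM. Serpina1c, with 58.93 to 168.97 estimated counts a library in the count table, was listed at 0 FPKM in the sham knee of M04 and at 0.0480 to 0.339 FPKM in the other libraries.

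**Figure D2:**
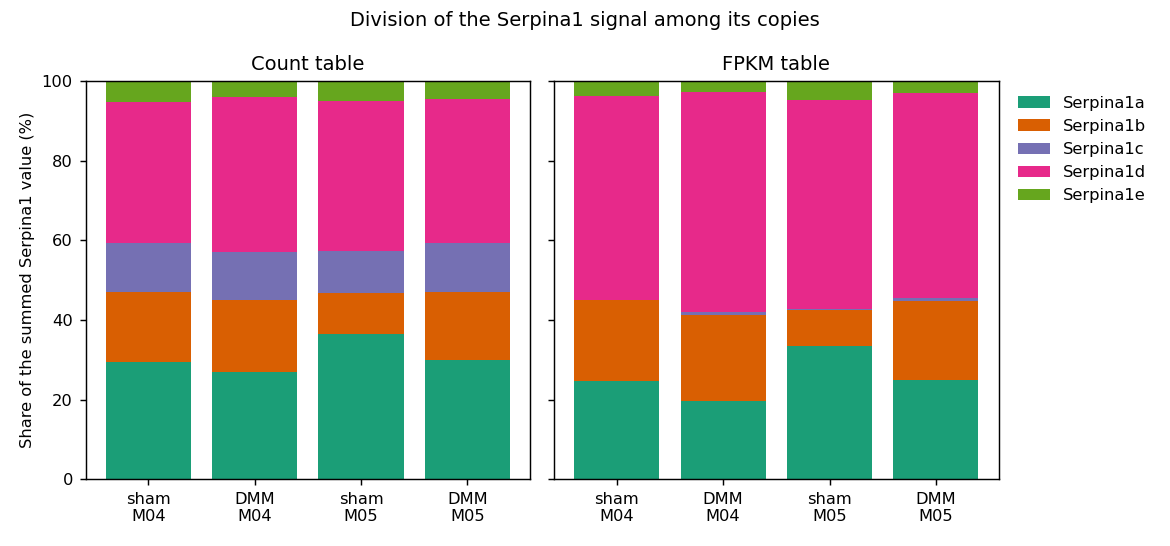
Share, in percent, of the summed Serpina1 value held by each of the 5 copies in each library, from the count table on the left and the FPKM table on the right. Serpina1c holds 10.6% to 12.3% of the counts and at most 0.684% of the FPKM, while Serpina1d is the largest part in both tables.

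The near-identical promoters of the 5 copies are shown beside their transcripts, which kept nearly the same order over the libraries and share reads. Whether the promoters bear on that order was not tested. Lines give 130 bases on the minus strand of GRCm38.p6 around the annotated starts, from RefSeq promoter entries, which all 9 genes have. The annotated start lies 115 to 126 bases into the line for Serpina1a to Serpina1d and 177 bases from its first base, past its end, for Serpina1e. Capitals mark the 12 positions that differ among the copies.
Serpina1a, chr12:103863610-103863739: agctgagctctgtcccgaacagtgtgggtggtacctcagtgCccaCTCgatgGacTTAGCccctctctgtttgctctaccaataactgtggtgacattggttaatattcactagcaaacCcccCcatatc
Serpina1b, chr12:103738185-103738314: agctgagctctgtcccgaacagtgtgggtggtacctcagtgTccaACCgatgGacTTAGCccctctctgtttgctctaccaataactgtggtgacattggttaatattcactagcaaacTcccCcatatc
Serpina1c, chr12:103904947-103905076: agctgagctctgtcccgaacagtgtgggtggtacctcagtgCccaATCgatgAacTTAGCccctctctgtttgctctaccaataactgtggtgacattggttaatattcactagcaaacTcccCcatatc
Serpina1d, chr12:103773619-103773748: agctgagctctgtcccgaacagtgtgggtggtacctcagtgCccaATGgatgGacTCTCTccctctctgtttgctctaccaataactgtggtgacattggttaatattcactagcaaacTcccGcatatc
Serpina1e, chr12:103956945-103957074: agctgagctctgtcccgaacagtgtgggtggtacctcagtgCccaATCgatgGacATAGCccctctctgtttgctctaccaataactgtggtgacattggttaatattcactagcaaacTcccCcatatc

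The windows are alike at 93.9% to 98.5% of bases in pairs and share an unbroken run of 59 bases. Within this run lies GTTAAT, a core of the site of the liver factor HNF1, which on either strand occurs in 7.14% of 32544 distinct promoters of 300 bases. No other of the 9 promoters holds it. The AP-1 motif TGANTCA occurs once in the promoter entries of Serpina1a to Serpina1d and not in that of Serpina1e, against 7.79% of all. The STAT motif TTCNNNGAA occurs once in Serpina3g and in no other of the 9 (8.33% of all). The E-box CACGTG is in none of the 9 (7.17% of all). Both strands were searched, the motifs were picked after the sequences had been seen, and a match is a string of letters, not a bound site.

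Liver transcripts were nearly absent beside this Serpina1 signal. Of 13 hepatocyte markers, Ttr, Apob, Fgb, Cps1, Apoc3 and Tat had 0 counts in all 4 libraries, which allows up to 3 counts each. Albumin (Alb) had 1 count in the DMM knee of M04 and 0 elsewhere. The summed list was at 3.62 and 3.27 for each 1000000 counts in the sham knees and at 6.10 and 2.61 in the DMM knees. Most of that came from Cyp2e1 and Apoa2, at 0.869 to 2.67 CPM, neither of which passed the threshold in either comparison. Hnf4a, a factor of liver and gut, had 25 counts in the DMM knee of M04 and 1 to 5 in the other libraries.

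The summed chondrocyte markers and the Serpina1 copies shared their lowest library, the sham knee of M05, but not their highest. The highest was the DMM knee of M04 for the summed markers and that of M05 for Serpina1. Single markers differed in this. Cnmd (75.6 and 101 CPM in the sham and DMM knee of M04, 30.4 and 103 CPM in those of M05) had the order of the Serpina1 sum. So had Snorc (86.4 and 97.0 CPM in M04, 37.5 and 111 CPM in M05). The others called higher in DMM were highest in the DMM knee of M04. With edgeR, 10 of the 21 markers rose in DMM and none fell, 11 fell in M05 against M04 and none rose, and their median log2 fold changes were 0.97 and -0.82, against -0.01 for all genes in both comparisons. Of the collagen and matrix genes, Comp was at 449 and 599 CPM in the sham and DMM knee of M04 and at 179 and 556 CPM in those of M05 (log2 fold change 1.02 in DMM, SE 0.16, adjusted p = 1.6e-06). Fmod, a small proteoglycan, was at 213 and 344 CPM in M04 and at 66.9 and 253 CPM in M05 (1.30, SE 0.16, adjusted p = 3.3e-10). Like the Serpina1 sum, both were lowest in the sham knee of M05. Without that library, 0 genes of all those tested were called higher in DMM, chondrocyte markers included.

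Scaled to 1000000 chondrocyte marker counts instead of all counts, the Serpina1 sum was 8673 and 9770 in the sham and DMM knee of M04, and in M05 it was 15365 and 18139. On this scale the log2 ratio of DMM to sham was 0.17 in M04 and 0.24 in M05, and the 2 mice no longer overlapped: M05 was higher by 0.83 in the sham and 0.89 in the DMM knees. Serpina1b kept a larger ratio in M05, 0.98, than in M04, 0.20. The base is a sum, so its most abundant marker, Col2a1, weighs most in it. Col2a1 was at 3343 and 3822 CPM in the sham and DMM knee of M04 and at 726 and 2739 CPM in those of M05. Its log2 ratio of DMM to sham in M05 was 1.91. Among the markers past the threshold in either comparison these M05 ratios ran from 0.83 for Col11a2 to 1.92 for Fmod. The scaled values therefore depend on which markers make up the base. The part that chondrocyte content plays in the Serpina1 values was not tested.

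**Figure D3:**
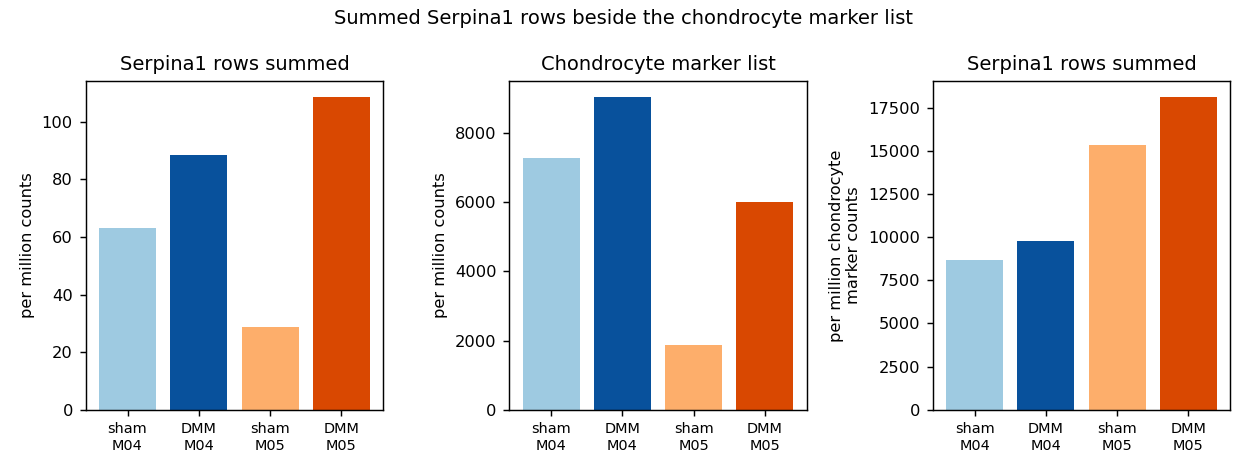
Summed Serpina1 counts (left) and summed counts of 21 chondrocyte markers (middle), both for each 1000000 counts in the library without TMM scaling, and Serpina1 counts for each 1000000 chondrocyte marker counts (right), 1 bar per library. Left and middle share their lowest bar, the sham knee of M05, and on the right both M05 libraries (15365 and 18139) lie above both M04 libraries (8673 and 9770).

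SERPINA3 proteins are acute-phase inhibitors of chymotrypsin-like proteases, and the mouse has many copies near Serpina1. Serpina3n is a secreted member that inhibits proteases such as cathepsin G and granzyme B. Serpina3g, also called Spi2A, protects cells from cathepsins set free from lysosomes. Their loops are shown because they are much alike at the hinge and differ at many bases beyond it. Both lines run on the plus strand of GRCm38, in the last exon, and capitals mark the 29 of 75 bases that differ.
Serpina3n, chr12:104413448-104413522: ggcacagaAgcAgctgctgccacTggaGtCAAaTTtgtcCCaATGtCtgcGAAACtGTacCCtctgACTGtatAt
Serpina3g, chr12:104241072-104241146: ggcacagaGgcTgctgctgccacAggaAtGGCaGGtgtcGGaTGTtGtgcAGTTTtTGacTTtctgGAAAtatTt

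Codon 15, before the cut bond, is ATG in Serpina3n and TGT in Serpina3g. Read sharing is smaller here than for Serpina1, as 99.8% of the 100-base stretches of Serpina3n and 96.5% of those of Serpina3g were found in no other gene. Serpina3n was at 26.4 and 24.9 CPM in the sham and DMM knee of M04 and at 23.2 and 30.0 CPM in those of M05. The knees overlapped and the direction differed between mice, with log2 ratios of -0.08 and 0.37 and a fold change of 0.14 (SE 0.19). Serpina3g was at 26.1 and 29.7 CPM in M04 and at 29.0 and 32.6 CPM in M05. Its DMM libraries lay above both sham libraries by a small margin (log2 ratios 0.19 and 0.17, fold change 0.18, SE 0.18), about as large as its SE.

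In FPKM, a scale on which genes can be compared, Serpina3n lay at 12.3 to 15.9 and Serpina3g at 13.1 to 16.8. Their ranges overlapped. The summed Serpina1 copies ran from 16.7 to 55.3 FPKM.

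Serpine2, protease nexin-1, binds thrombin and the plasminogen activators at the cell surface and is made by many connective tissue cells; the gene is on chromosome 1. It was the most abundant of the 9 per length in every library, at 156 and 212 FPKM in the sham and DMM knee of M04 and at 162 and 180 FPKM in those of M05. In CPM it was at 287 and 393 in M04 and at 301 and 330 in M05. The DMM libraries lay above the sham libraries, but the DMM knee of M05 was only slightly above its own sham (log2 ratio 0.13, against 0.46 in M04). The fold change was 0.29 (log2, SE 0.15).

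Serpinf1, pigment epithelium-derived factor, has the serpin fold but inhibits no protease; it binds collagen, restrains vessel growth and is needed for normal bone mineral. It is on chromosome 11. Its levels were 99.1 and 134 FPKM in the sham and DMM knee of M04 and 83.1 and 103 FPKM in those of M05. In CPM they were 128 and 173 in M04 and 107 and 132 in M05, so both DMM libraries lay above both sham libraries, narrowly for the DMM knee of M05. The log2 ratios were 0.44 and 0.30 and the fold change 0.37 (SE 0.15). Serpine2 exceeded Serpinf1 by 1.57-fold to 1.95-fold in FPKM. All 100-base stretches of Serpine2 and of Serpinf1 were found in no other gene, so copies do not blur these values.

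Scaling to chondrocyte marker counts lowers the M05 ratio of every gene by nearly the same amount, and likewise, by less, the M04 ratio, so it leaves the gaps between genes nearly as they were. For the 4 genes outside the Serpina1 group the log2 ratios of DMM to sham in M05 became -1.19 for Serpina3n, -1.39 for Serpina3g, -1.43 for Serpine2 and -1.26 for Serpinf1. In M04 the ratios were -0.29, -0.02, 0.25 and 0.23 in the same order. Serpina1a came to -0.04 in M05. The sign of these genes in M05 therefore depends on the base chosen and is no property of the genes.

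**Figure D4:**
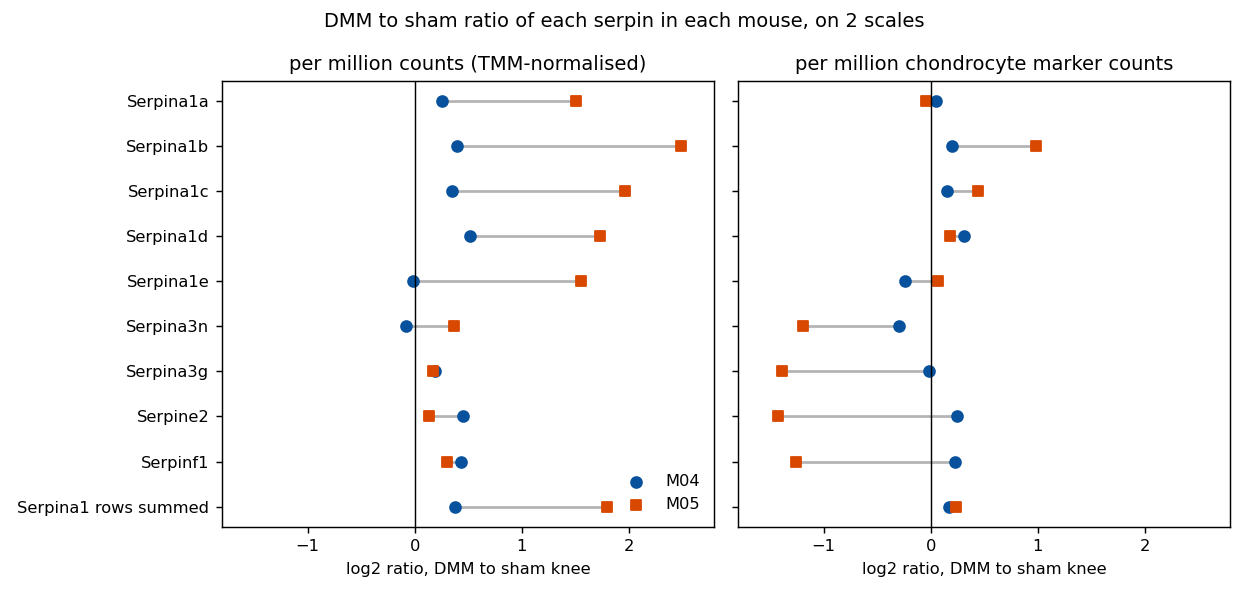
Log2 ratio of DMM to sham knee for each serpin in M04 (circles) and M05 (squares), from TMM-normalised CPM on the left and from counts scaled to the chondrocyte marker counts on the right, with a grey line joining the mice. For the summed Serpina1 rows the mice lie at 0.38 and 1.79 on the left and at 0.17 and 0.24 on the right, and Serpine2 in M05 lies at 0.13 and at -1.43. The change of base shifts all genes of a mouse nearly alike.

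Between the mice, a comparison not used to choose the genes, none of the 9 serpins passed an adjusted p of 0.05 in edgeR's quasi-likelihood test, where 2.6% of all genes did. At an unadjusted p under 0.05 there was 1, Serpinf1, lower in M05 by a log2 fold change of -0.32 (SE 0.15, edgeR adjusted p = 0.30) and lower in both kinds of knee. DESeq2 gave an adjusted p only for Serpine2 (0.86) and Serpinf1 (0.32) of the 9 in this comparison. The Serpina1 sum differed by -0.16 (SE 0.20, adjusted p = 0.80). Serpina1b differed by -0.51 (SE 0.28, adjusted p = 0.41), and the other 4 copies by -0.22 to 0.08. Serpina3n, Serpina3g and Serpine2 differed by 0.04, 0.14 and -0.09. The median of the 9 was -0.09, beside -0.01 for all genes. Without surgery as a term, or without the sham library of M04, 0 genes of any kind were called between the mice.

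For the Serpina1 copies these values average 2 opposite differences. In the sham knees M05 lay below M04 for all 5 copies, by log2 ratios of -0.57 to -1.63, and in the DMM knees it lay above M04 for all 5, by 0.42 to 0.70. For the sum the ratios were -0.88 and 0.53. Without the DMM library of M05, 2 copies passed the edgeR threshold between the mice, Serpina1b (adjusted p = 0.0092) and Serpina1d (adjusted p = 0.034), as did the sum (log2 fold change -1.09, adjusted p = 0.0060), where 2.42% of all genes passed. That fit had no surgery term and set the sham library of M05 alone against both knees of M04. Its values therefore mix mouse with surgery, and no difference between the mice is read from them. Sham against sham, the ratio of the sum was -0.88, nearer 0 than the -1.09 of that fit. With 1 library per mouse and knee, the crossing of the mice in the Serpina1 copies could not be tested. Serpina3g and Serpinf1 kept their order of the mice in both kinds of knee.

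Transcripts of proteases that these serpins can meet were present, with no called change. Protein and activity of these proteases were not measured. Of 16 listed targets, 12 were tested and 0 passed the threshold in either comparison; their median log2 fold changes were -0.0012 in DMM and 0.05 in M05. Elane, neutrophil elastase and the main target of alpha-1-antitrypsin, was at 936 and 859 CPM in the sham and DMM knee of M04 and at 1039 and 1185 CPM in those of M05. The other abundant targets were Ctsb, the lysosomal cathepsin B (885 to 1008 CPM), and Prtn3, proteinase 3 of neutrophils (561 to 697 CPM). None of the 3 separated DMM from sham. Elane and Prtn3 are also on the list of neutrophil markers.

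Of 12 receptors and cofactors, 11 were tested, 0 passed in DMM and 1 fell in M05. That was Lrp1, the endocytic receptor that clears serpin-protease complexes. It was at 105 and 107 CPM in the sham and DMM knee of M04 and at 58.0 and 69.1 CPM in those of M05. The log2 fold change was -0.75 (SE 0.16, edgeR adjusted p = 0.00044, 1 animal a side). Rpsa, reported as a receptor of the Serpinf1 product, was at 2343 to 3298 CPM and Sort1 at 103 to 124 CPM. The median fold change of this list was 0.12 in DMM and -0.24 in M05.

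Other acute-phase plasma proteins showed no called change. Of 20 genes, 10 had 0 counts throughout, 8 were tested and 0 passed in either comparison (median log2 fold changes 0.08 in DMM and 0.13 in M05). The most abundant were Lcn2, Hp and C3, which myeloid cells also make; C3 was at 663 and 568 CPM in the sham and DMM knee of M04 and at 619 and 696 CPM in those of M05. Of 19 genes of the IL-6 family and the STAT3 pathway, which drives acute-phase genes in liver, 16 were tested and 0 passed in either comparison (median log2 fold changes -0.05 in DMM and -0.11 in M05). Stat3 itself was at 52.6 to 67.1 CPM, and Jak1 and Il6st were the other abundant members.

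Of the 54 serpin rows outside the 9, 27 had 0 counts in all libraries and 16 were tested; none passed in DMM, and 1 fell in M05. Their median log2 fold change was 0.16 in DMM. The one that fell was Serping1, the C1 inhibitor of complement and kallikrein. It was at 81.5 and 83.1 CPM in the sham and DMM knee of M04 and at 51.5 and 60.4 CPM in those of M05. The log2 fold change was -0.56 (SE 0.16, edgeR adjusted p = 0.021, 1 animal a side). Serpinh1, the collagen chaperone Hsp47, was at 202 and 273 CPM in M04 and at 193 and 244 CPM in M05, above sham in both mice but not past the threshold (0.39, SE 0.15, adjusted p = 0.51).

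The other serpins with a mean of at least 5 CPM were Serpinb1a, an intracellular inhibitor of neutrophil proteases (228 to 291 CPM), Serpinb6a (67.7 to 81.5 CPM), Serpinb10 (21.5 to 36.2 CPM), Serpina3f (7.27 to 9.94 CPM), Serpina3b, Serpina3c, Serpinb2, Serpinb6b and Serpinb9. The last 5 lay between 4.11 and 9.23 CPM. Serpina3b was lowest in the sham knee of M05, as all 5 Serpina1 copies were, at 8.07 and 9.23 CPM in the sham and DMM knee of M04 and at 4.11 and 8.13 CPM in those of M05. This is not particular to them, as Serpina3n, Serpinf1, Serpina3f, Serpinh1 and Serping1 were lowest in that library too.

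Marker lists of the other cells that such a sample could hold are set against the 0.633% of all genes that were called higher in DMM and the 2.6% called in either direction between the mice. Of the superficial-zone markers, 1 of 7 rose in DMM (Prg4) and 4 fell in M05 (Prg4, Clu, Thbs4 and Abi3bp). Osteoblast and osteocyte markers had 2 of 12 higher in DMM (Ibsp and Alpl) and 1 lower in M05 (Alpl). Fibroblast markers had 2 of 8 tested higher in DMM (Clec3b and Dpt), neutrophil markers 2 of 13 higher in M05 (S100a8 and S100a9), and endothelial markers 2 of 8 lower in M05 (Cdh5 and Kdr). The macrophage, erythroid, osteoclast, marrow stroma and adipocyte, muscle, and B and T cell lists had 0 called in either comparison. Muscle markers were uneven between knees of both kinds, at 175 and 507 for each 1000000 counts in the sham and DMM knee of M04, and at 535 and 176 in the same order in M05. On the same scale the summed neutrophil markers were at 45911 to 62253 a library, against 1871 to 9045 for the summed chondrocyte markers. What part the cells of these lists have in the serpin values was not tested.

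Genes whose profile over the 4 libraries was most like that of a serpin were found by the root mean square distance of centred log2 CPM over the 7275 non-member genes that averaged 10 CPM or more. For the Serpina1 sum they were Ndufa4l2 (distance 0.144), Ppp1r1b (0.167) and Ly6a (0.232). Ndufa4l2 was at 14.3 and 16.6 CPM in the sham and DMM knee of M04 and at 5.81 and 22.7 CPM in those of M05. The nearest to Serpina3n were Slc2a3, P2rx1 and Taf3 (0.009 to 0.013), to Serpine2 Sfxn3, Olfml3 and Gpd1 (0.011 to 0.014), and to Serpinf1 Acbd3, Ehd2 and Parva (0.005 to 0.038). The distances describe these 4 libraries and carry no test.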

How the data were processed

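Both knees of mice M04 and M05 gave 4 poly(A) libraries, sequenced as single-end reads of 100 bases, per the labels' protocols. Submitters' processing notes name the build GRCm39 (mm39). Aligner, counter and strand handling were not given in the sources used here, so antisense partners cannot be told apart. The free text on the sham samples mentions a DMM knee; titles and treatment fields were followed. The deposited table holds the authors' estimated counts per gene, of which 9.21% to 10.9% a library were not whole; each library is listed in 2 columns with equal values, and 1 was used. The deposited FPKM values were made by the authors and served for levels and alternatives.

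Counts were rounded and fitted with edgeR 4.0.16 in R 4.3.3 (filterByExpr, TMM, robust quasi-likelihood), with surgery and mouse as terms. P-values were adjusted by Benjamini-Hochberg across the 13103 genes tested, with a threshold of 0.05, and an SE is the fold change over the square root of F. Mice form a block because the labels pair the knees by animal; deviations of same-mouse libraries correlated at 0.13. The fit leaves 1 residual degree of freedom, and for 83.0% of genes, including the 4 serpins outside the Serpina1 group, the spread came from the trend across genes. For the Serpina1 copies too the spread came almost wholly from other genes, with 210 to 12593 degrees of freedom borrowed against 1 of their own. P-values and SEs therefore do not measure the spread between mice, and they cover only these samples. Ratios per mouse use log2 CPM with a prior count of 2. Alternatives used limma 3.58.1 on log2 FPKM with a pseudocount of 1 or 0.1, DESeq2 1.42.0, other scalings and filters, and each library left out; with 3 libraries only the term compared was fitted, so the lone library is assumed to vary like the others. The statistics scripts were tested on simulated data.

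The 9 genes and 17 lists (203 genes, all found, 3 under older symbols) were chosen with earlier results of these data known. Named genes are all 9, other serpins with a mean of at least 5 CPM, and the 3 nearest profiles. Of each list, the genes past the threshold and its 3 most abundant were to be named. For cell markers, mainly those past the threshold are given, and for chondrocyte markers only some of those. Wilson intervals are at 95%.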

Additional observations from a re-analysis of the deposited data

Results flagged for a closer look

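Some serpins differed in opposite directions in the 2 mice or in the 2 kinds of knee. None of these differences was tested, because 1 library per mouse and knee leaves no spread to test with. All values are log2 ratios of TMM-normalised CPM.

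The Serpina1 copies crossed over between the mice. M05 was below M04 in the sham knees and above it in the DMM knees, by -0.57 and 0.69 for Serpina1a, by -1.63 and 0.45 for Serpina1b and by -1.07 and 0.54 for Serpina1c. The same pair of values was -0.80 and 0.42 for Serpina1d, -0.87 and 0.70 for Serpina1e, and -0.88 and 0.53 for the sum. The copies share reads, so these are not separate observations. Serpina3n crossed the same way by smaller amounts, -0.18 and 0.27, and Serpine2 the other way, 0.072 in the sham and -0.25 in the DMM knees.

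From sham to DMM, Serpina1e had ratios of -0.016 in M04 and 1.55 in M05, and Serpina3n -0.084 and 0.37. Among the other serpins, Serpinb10 had ratios of 0.14 and -0.47, Serpinb1a 0.074 and -0.077, and Serpinb9 0.084 and -0.15.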

How the results depend on the processing

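All 143 alternative fold changes of the 9 serpins and the Serpina1 sum in DMM against sham were above 0, but their size was not steady. They ran from 0.51 to 1.21 for Serpina1a, 0.65 to 2.32 for Serpina1b, 0.35 to 1.75 for Serpina1c, 0.74 to 1.55 for Serpina1d, 0.31 to 1.31 for Serpina1e, 0.67 to 1.56 for the sum, 0.0013 to 0.28 for Serpina3n, 0.10 to 0.25 for Serpina3g, 0.17 to 0.42 for Serpine2 and 0.17 to 0.55 for Serpinf1. The 143 leave out the log2 ratios scaled to chondrocyte marker counts. In M05 these were -1.19 for Serpina3n, -1.39 for Serpina3g, -1.43 for Serpine2 and -1.26 for Serpinf1. Left out too are the ratios of single mice, which in M04 were below 0 for Serpina1e and Serpina3n. The count of genes called depended on the model. For DMM against sham, 85 genes were called; 0 without the replicate block (322 at an unadjusted p under 0.05), 13 with DESeq2, 35 with DESeq2's size factors, 25 with scaling without haemoglobin genes, 0 in the FPKM table with either pseudocount (655 and 706 at an unadjusted p under 0.05), 1 there without a filter, and 0 to 121 with each library left out. For M05 against M04 it was 341, then 0 without the replicate block (1819), 72, 186, 113, 0 and 0 in FPKM (1270 and 1031), 0 without a filter (1471), and 0 to 331. Causes were not tested, except that leaving out a library leaves 3.

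M05 against M04 turned to the opposite sign without the replicate block for Serpina1c (0.0084), Serpina1d (0.016), Serpina1e (0.097) and the sum (0.066). In FPKM, Serpina1c was at 0.070 with a pseudocount of 1, filtered or not, and at 0.40 with 0.1, and Serpina1e at 0.062 and 0.071. With each library left out it ran from -0.70 to 0.81 for Serpina1a, -1.89 to 0.64 for Serpina1b, -1.29 to 0.71 for Serpina1c, -1.08 to 0.66 for Serpina1d, -0.91 to 0.72 for Serpina1e, -0.14 to 0.23 for Serpina3n, -0.30 to 0.13 for Serpine2 and -1.09 to 0.71 for the sum. The fits of M05 against M04 with a library left out had no surgery term, so their values mix mouse with surgery. Likewise, those of DMM against sham had no mouse term and mix surgery with mouse. Of 369 alternative values in all, 298 stayed within the limits set for them, which is no measure of robustness. For the serpins in DMM against sham, 135 of 143 stayed within the standard deviation of the ratios of the mice. That limit is wide for the Serpina1 copies and takes no account of the threshold. For the serpins in M05 against M04 the limits were direction and side of the threshold. No scaling moved the median of all genes by over 0.1. Depth limits the rarest copy, Serpina1e, with 27.93 to 61.55 estimated counts a library.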

Other observations

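A pair of plasma serpins near the limit of detection were named after their values had been seen. Serpinf2, which encodes alpha-2-antiplasmin, had 9 and 3 counts in the sham knees of M04 and M05 and 0 in both DMM knees. Antithrombin (Serpinc1) had 0 or 1 count in every library.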
